A study of Mus musculus with 3 samples.

Results

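The hippocampus of PS19 mice labelled heterozygous for Zbp1 (Zbp1+/-) was compared with that of PS19 mice with no Zbp1 change in their label. The genes compared were the autosomal protein-coding genes with an FPKM (fragments per kilobase of gene, scaled by the authors with 1 factor per library) of at least 1 in either of these libraries. They numbered 12315 of the 54532 genes in the deposited table. Of these 12315 genes, 11188 reached an FPKM of 1 in both libraries, 887 only in PS19 and 240 only in PS19 Zbp1+/-. Differences are of log2(FPKM + 1), PS19 Zbp1+/- minus PS19, a scale that understates changes of weakly expressed genes. Where 3 values follow a gene or list, they are those of WT, PS19 and PS19 Zbp1+/-, in this order, and a lone number in parentheses after them is the log2 difference. Intervals in parentheses are exact (Clopper-Pearson) 95% intervals of the read ratio. Genes past 1 log2 unit in either direction, or 2-fold on this scale, are called lower or higher.

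Bulk RNA was sequenced from the hippocampus of C57BL/6 mice aged 10 months in 3 genotypes: wild type (WT), PS19, and PS19 with Zbp1 written as +- in the labels (PS19 Zbp1+/- here). Both groups compared carry the PS19 transgene, a human tau cDNA with a dementia mutation driven by the mouse Prnp promoter. The WT library carries no transgene and is given beside the others as a level only. There was 1 library for each genotype, so no replicate check exists, no p-value was computed, and the sources used here do not say whether a library held 1 animal or a pool.

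ZBP1 binds double-stranded RNA and DNA wound to the left, the Z form, and, through RIPK1 and RIPK3, can start inflammatory signalling and the lytic cell death called necroptosis. Zbp1 is itself induced by interferon, as are the IFIT, OAS, MX and guanylate-binding proteins, the MHC class I molecules and much of the complement system. In the PS19 model, tau aggregates in hippocampal and cortical neurons, microglia and astrocytes turn reactive, and neurons and synapses are lost with age.

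Read depth was alike in the libraries, and their composition was not. The whole reads that underlie the FPKM values totalled 16400328 in PS19 and 17109734 in PS19 Zbp1+/-, with a median of 553 and 503 reads per compared gene. All 12 listed CA1 pyramidal genes and the 18 dentate granule genes compared had an FPKM of at least 1 in both libraries, as the hippocampal label implies. PS19 Zbp1+/- was poorer in weakly expressed genes: of 125 autosomal protein-coding genes that held 8 to 12 reads in each of the other libraries, 23 were unread, a share of 18.4% (exact Clopper-Pearson 95% interval 12% to 26.3%). The corresponding share was 0 of 93 genes for PS19, which allows up to 3.89%, and 1.43% of 70 genes for WT. Whether tissue composition or a loss of weak transcripts left these genes unread was not tested. Low counts in PS19 Zbp1+/- are best read as less certain than their counting intervals state. Every interval covers counting error alone, because each genotype had 1 library. Reads also lack molecular identifiers and need not come from separate molecules. Xist, the transcript of the inactive X chromosome, had 13350 reads in PS19 and 0 in PS19 Zbp1+/-, so the genotypes cannot be told apart from the sex of the animals, which the labels do not give.

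The targeted gene Zbp1 (ENSMUSG00000027514) lies on the minus strand of chromosome 2 at 173206612 to 173218923 in GRCm38. WT held 5 of its reads, PS19 91 and PS19 Zbp1+/- 0. The count of 0 allows an FPKM of up to 0.0537, which makes the library at least 27.8-fold lower than PS19. A heterozygote keeps 1 allele, and whether that allele was silent or near its WT level cannot be told apart at this depth. Mapt, the mouse tau gene on chromosome 11, was level at FPKM values of 63, 65.1 and 65.3 in WT, PS19 and PS19 Zbp1+/-. Prnp, the source of the transgene's promoter, stood at 405, 659 and 512, a read ratio of 0.776 for PS19 Zbp1+/- over PS19 (95% interval 0.762 to 0.791). Neither gene was taken as a measure of the transgene's own level, which was not tested. Actb, a cytoskeletal actin often used as a reference gene, stood at an FPKM of 406, 371 and 557.

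By the 2-fold criterion 637 of the 12315 genes were lower in PS19 Zbp1+/-, 5.17% of those compared, and 239 were higher, 1.94%. The differences were small for most genes: the median was 0.04, the quartiles were -0.28 and 0.31, and 72.2% of the genes lay within 0.5 log2 units. Large differences were mostly decreases, with 102 genes at least 4-fold lower and 8 at least 4-fold higher. Lower by any amount were 46.4% of the genes and higher 53.6%, which is the background for the counts of direction below. A gene that reached an FPKM of 1 only in PS19 had to be lower: such genes made up 312 of the 637 lower genes, and 325 were lower among the genes at 1 or more in both libraries.

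**Figure D1:**
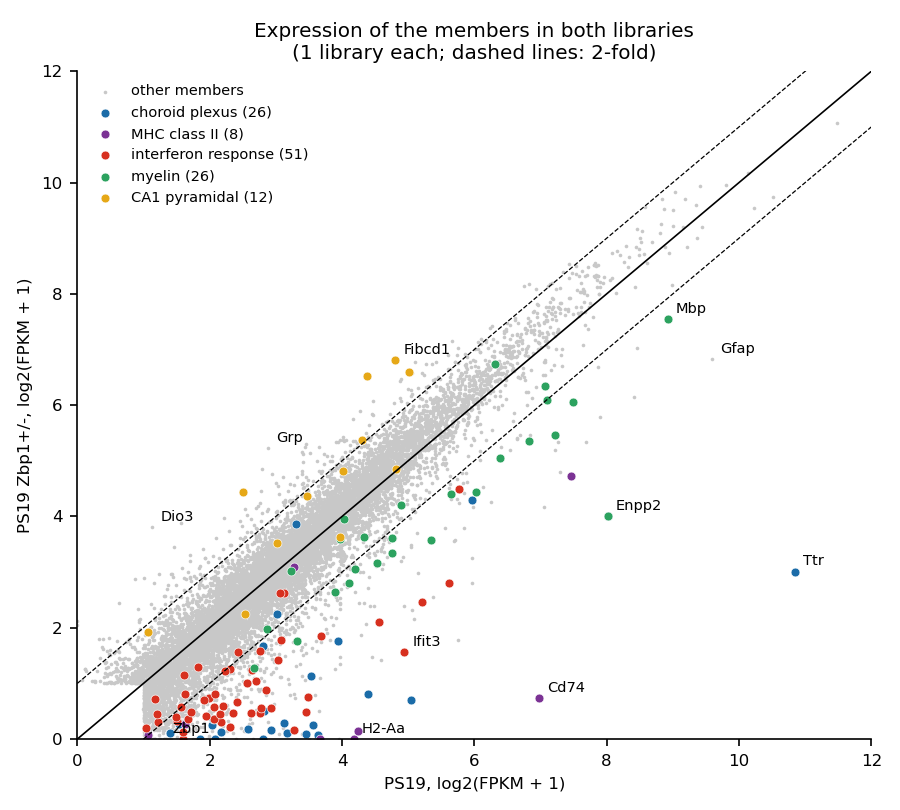
Expression of the 12315 genes in PS19 (x axis) and PS19 Zbp1+/- (y axis), both as log2(FPKM + 1), with 5 gene lists coloured and 1 library on each axis. The dashed lines mark 2-fold: interferon response and MHC class II genes, and most choroid plexus and myelin genes, lie below the diagonal, and 5 of 12 CA1 pyramidal genes lie above the upper line.

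Where the called genes sat was described with 44 lists of pathway and cell type genes, chosen with earlier results of these data known. The shares over all 12315 genes, 5.17% lower and 1.94% higher, are the background for the counts that follow. Lists of immune, interferon, lysosome and cell death genes held 228 of the compared genes, of which 117 were at least 2-fold lower and 0 higher. Astrocyte and oligodendrocyte lists held 80 genes, with 36 lower and 0 higher. Choroid plexus, ependyma and meningeal fibroblast lists held 61 genes, with 40 lower and 2 higher. The neuron, synapse, channel and region lists held 328 genes, with 14 lower and 27 higher. Listed genes that reached an FPKM of 1 only in PS19 had to be lower, and the 117 include the targeted Zbp1 itself. Lists can share genes. The 971 genes in any of the 44 lists, counted once each, included 213 lower and 29 higher genes, and the 11342 genes in no list included 424 lower and 210 higher.

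**Figure D2:**
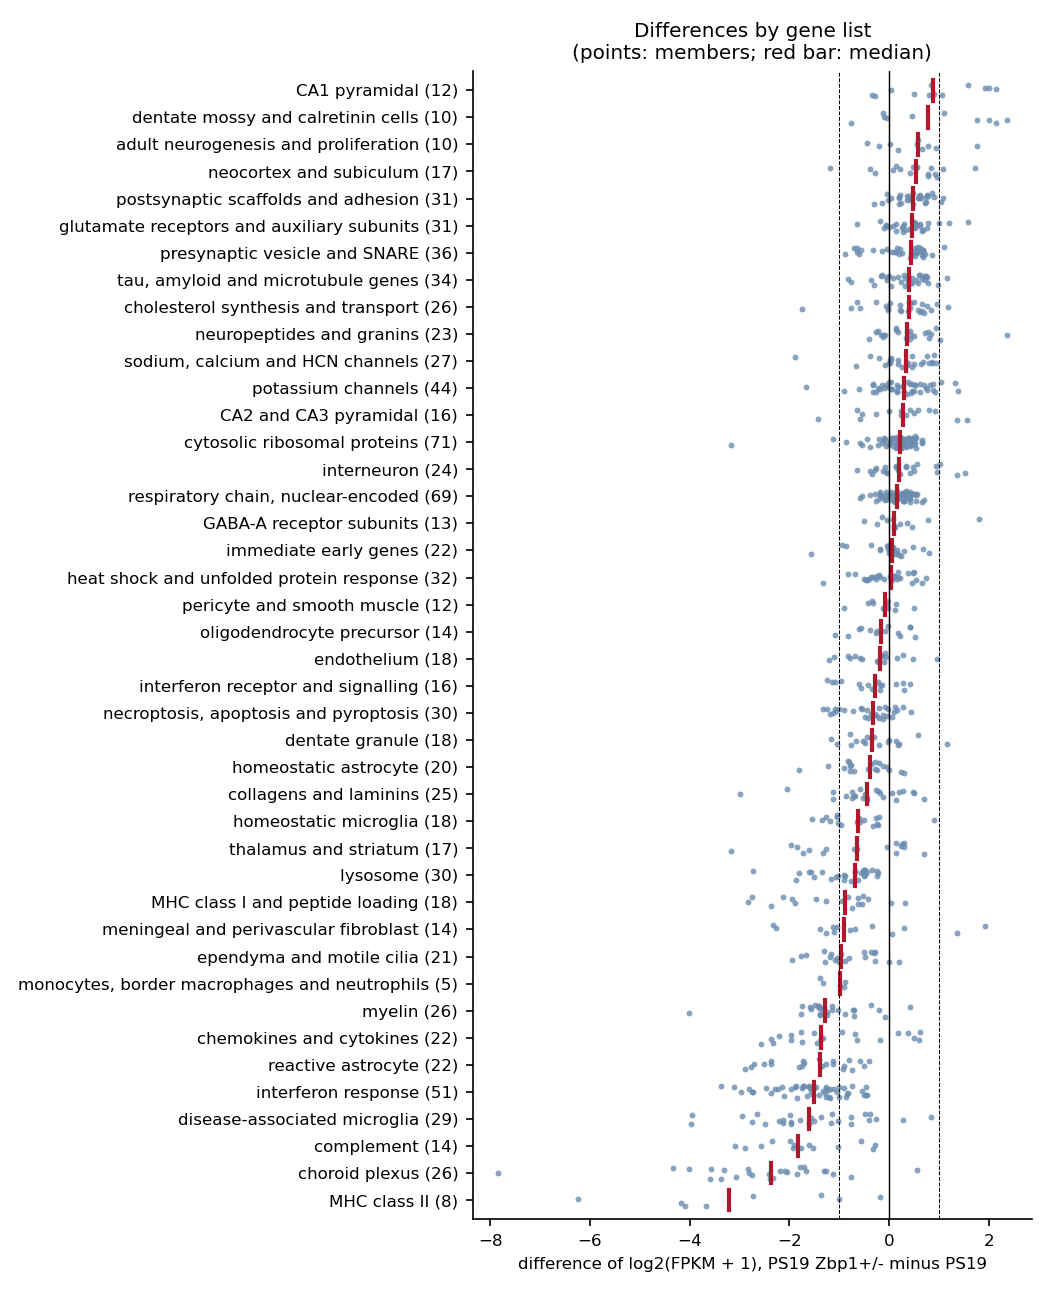
Difference of log2(FPKM + 1), PS19 Zbp1+/- minus PS19, for every compared gene (points) of the 42 lists with at least 5 such genes, ordered by median (red bars; list size in parentheses), with dashed lines at 2-fold. MHC class II (median -3.20) and choroid plexus (-2.36) stand at the low end, and CA1 pyramidal (0.88) at the high end.

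Interferon response genes, which encode antiviral effectors, sensors and their transcription factors, were lower without exception among those compared. Of 58 listed genes 51 were compared, 51 were lower by any amount, and 40 were at least 2-fold lower, with 0 higher. Their median was -1.50, against 0.04 for all genes. Only 19 of the 51 had an FPKM of 1 in both libraries, with a median of -1.29. The others reached that level in PS19 only, and so had to be lower. The FPKM summed over the list was 138, 396 and 80.8. Fewer cells of a type and less RNA per cell cannot be told apart in bulk tissue, here or for the glial lists below.

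Ifit3, Ifit1 and Ifit3b encode tetratricopeptide proteins that bind viral RNA and restrict its translation, and they lie side by side on chromosome 19. Ifit3 (34583531 to 34588731, plus strand) had 92 reads in the WT library, 897 in PS19 and 54 with reduced Zbp1, a difference of -3.38 and a ratio 15.2-fold lower (95% interval 11.6 to 20.4). Ifit1 (34640871 to 34650009) had 39, 400 and 5 reads in the same order, 73.2-fold lower (31.1 to 227). Ifit3b (34607970 to 34613401) had 39, 353 and 22 reads, 14.7-fold lower, and shares near-identical sequence with Ifit3, so the split of reads between them is uncertain. In each of these 3 genes the PS19 library stood above both others, and PS19 Zbp1+/- was the lowest. Bst2, which encodes tetherin, a membrane protein that holds budding virus on the cell (chromosome 8, 71534255 to 71537456, minus strand), had 120, 353 and 47 reads and was 6.88-fold lower (5.06 to 9.53).

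The promoters of these 4 genes, the lowest interferon genes with a matched promoter sequence that held the motif, show the element through which interferon-activated factors bind DNA. Shown are the 250 bases before the RefSeq start (GRCm38.p6), with matches to the interferon-stimulated response element core, GAAANNGAAA or its reverse complement TTTCNNTTTC, in capitals; both strands were searched and matches may overlap. The windows are chr19:34583279-34583528 (plus) for Ifit3, chr19:34640639-34640888 (plus) for Ifit1, chr19:34607707-34607956 (plus) for Ifit3b and chr8:71537473-71537722 (minus) for Bst2.
Ifit3: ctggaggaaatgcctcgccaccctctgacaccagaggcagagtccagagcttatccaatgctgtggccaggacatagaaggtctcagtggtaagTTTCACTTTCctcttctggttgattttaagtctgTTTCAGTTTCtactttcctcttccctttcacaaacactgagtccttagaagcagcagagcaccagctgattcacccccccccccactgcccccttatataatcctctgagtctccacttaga
Ifit1: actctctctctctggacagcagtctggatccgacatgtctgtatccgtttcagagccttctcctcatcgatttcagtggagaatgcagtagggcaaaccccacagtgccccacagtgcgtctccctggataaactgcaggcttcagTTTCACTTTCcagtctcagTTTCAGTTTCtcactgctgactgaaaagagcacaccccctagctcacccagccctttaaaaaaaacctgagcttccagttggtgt
Ifit3b: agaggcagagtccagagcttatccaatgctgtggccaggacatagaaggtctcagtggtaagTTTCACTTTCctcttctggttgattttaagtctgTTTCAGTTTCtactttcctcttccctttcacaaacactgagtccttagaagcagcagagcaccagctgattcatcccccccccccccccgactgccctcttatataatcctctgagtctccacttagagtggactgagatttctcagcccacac
Bst2: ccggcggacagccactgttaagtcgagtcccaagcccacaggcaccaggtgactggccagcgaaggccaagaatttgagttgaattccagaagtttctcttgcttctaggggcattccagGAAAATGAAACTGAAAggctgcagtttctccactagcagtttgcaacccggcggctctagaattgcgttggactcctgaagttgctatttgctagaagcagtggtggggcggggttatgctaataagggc
Each window held 2 matches, which began at -156 and -122 in Ifit3, -104 and -85 in Ifit1, -188 and -154 in Ifit3b, and -130 and -124 in Bst2, counted from the RefSeq start. The 2 matches in Bst2 overlap. Ifit3 and Ifit3b shared a run of 169 identical bases that spans both matches, while Ifit3 and Ifit1 shared no run longer than 13 bases. Of all 32851 promoter windows of this length in the reference table, 978 held the motif, 2.98%. A promoter was matched for 40 of the 51 interferon genes, 78.4%, which is too few for a share over the list. A match is a description of sequence, not a mapped binding site.

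Other interferon response genes covered a wide range of differences. Ifi27l2a, a small interferon-inducible membrane protein gene, had 14, 80 and 3 reads in that order, a difference of -2.96. Ifitm3, which blocks viral entry at endosomes, had 201, 564 and 64 reads, a difference of -2.82. Lgals3bp, a secreted galectin-binding glycoprotein, had 553, 1765 and 202 reads, a difference of -2.75. At the other end of the list stood Cmpk2, a mitochondrial nucleotide kinase, with 367, 530 and 342 reads (-0.43), Parp10 with 65, 153 and 83 (-0.46) and the immunoproteasome subunit Psmb9 with 36, 80 and 37 (-0.47). For these 3 genes PS19 Zbp1+/- lay close to WT.

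The receptors and transducers of interferon were nearer level. Of 16 compared genes 3 were at least 2-fold lower, 0 were higher, and the median was -0.28. Irf8, a transcription factor of myeloid cells, had 98, 487 and 124 reads, a difference of -1.24. Ifngr1, a chain of the interferon gamma receptor, had 221, 450 and 162 reads (-1.14), whereas its partner chain Ifngr2 had 1086, 803 and 1011 (0.43). Irf3, which is activated by nucleic acid sensors, had 452, 495 and 185 reads (-1.08). Ifnar1, a chain of the type I interferon receptor, had 705, 801 and 910 reads (0.28). Adar, which edits double-stranded RNA and carries a Z-binding domain, had 2042, 2462 and 2810 reads (0.30), above both other libraries.

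Antigen presentation genes were lower, the class II pathway most of all. All 8 compared MHC class II genes were lower, 7 of them at least 2-fold, with a median of -3.20, and summed FPKM was 62.7, 360 and 34.4. Only 2 of the 8, Ctss and H2-DMa, had an FPKM of 1 in both libraries, with a median of -1.45. The others, Cd74, H2-Aa, H2-Ab1 and H2-Eb1 among them, reached it in PS19 only and so had to be lower. Cd74, the invariant chain that guards the class II groove (chromosome 18, 60803848 to 60812646), had 204, 3052 and 15 reads, 186-fold lower (113 to 333). The chains of the class II dimers were all but unread in PS19 Zbp1+/-: H2-Aa (chromosome 17, 34282744 to 34287827) had 63, 553 and 0 reads, at least 169-fold lower. H2-Ab1 had 43, 333 and 0 reads, at least 102-fold lower. H2-Eb1 had 74, 367 and 2 reads, a ratio of 0.00595 (0.000718 to 0.0217). Ctss, the lysosomal protease that trims the invariant chain, kept 547 reads against 4109 in PS19 and 848 in WT, and H2-DMa, a chain of the peptide editor, was near level at 238, 245 and 196 reads.

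Of 18 class I and peptide loading genes 8 were at least 2-fold lower, 0 were higher, and the median was -0.88. Over the 14 at an FPKM of 1 in both libraries the median was -0.69, and genes at 1 only in PS19 had to be lower. H2-D1 (chromosome 17, 35262730 to 35267499) had 835, 1811 and 199 reads, 8.33-fold lower (7.19 to 9.69), and H2-K1 had 711, 1465 and 164, 8.18-fold lower (6.95 to 9.67). Both were also below WT. These heavy chains have near-identical relatives in the H2-Q and H2-T regions, so the split of reads among them is uncertain. B2m, the shared light chain on chromosome 2, had 1241, 3547 and 737 reads, 4.41-fold lower. The proteasome activator subunit Psme1, with 583, 587 and 551 reads (0.03), and the peptide editor Tapbpl, with 83, 111 and 136 (0.32), were not lower.

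All 14 compared complement genes were lower and 11 were at least 2-fold lower, with a median of -1.84. Of the 14, 8 had an FPKM of 1 in both libraries, with a median of -1.96, and the others had to be lower. C3, the central component of all complement pathways (chromosome 17, 57203970 to 57228136), had 73, 768 and 11 reads, 63.9-fold lower (35.5 to 129). C4b, which acts upstream of C3 (chromosome 17, 34728380 to 34743882), had 1082, 13037 and 1530 reads, 7.8-fold lower (7.4 to 8.23), and its reads can be shared with the close paralog C4a. C1qa, a chain of the initiating C1q complex, had 861, 3680 and 648 reads, 5.2-fold lower. Serping1, the C1 inhibitor, had 213, 473 and 42 reads, a difference of -2.58. For C3 and Serping1 PS19 Zbp1+/- was below WT, and for C4b it was above WT. C5ar1, a receptor for the C5a fragment, had 14, 45 and 27 reads (-0.27).

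Genes of activated microglia were widely lower, and genes of resting microglia differed less in the median. Of 29 compared disease-associated microglia genes 21 were at least 2-fold lower and 0 higher, with a median of -1.60. The median was -1.36 over the 21 genes at an FPKM of 1 in both libraries, and genes at 1 only in PS19 had to be lower. Cst7, an inhibitor of cysteine proteases (chromosome 2, 150570415 to 150578944), had 12, 248 and 0 reads, at least 75.7-fold lower. Itgax, the integrin CD11c, had 14, 602 and 5 reads, 110-fold lower (47 to 341), and Lyz2, a lysozyme of myeloid cells, had 225, 1201 and 51. Trem2, the lipid receptor upstream of this state, had 206, 1066 and 229 reads, 4.26-fold lower (3.69 to 4.94), and its adaptor Tyrobp had 131, 582 and 114. For Trem2 and Tyrobp the PS19 Zbp1+/- library lay close to WT, while for Itgax, Lyz2 and Cst7 it lay below WT. Timp2, a metalloprotease inhibitor, went the other way with 5989, 5810 and 9615 reads (0.85).

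Of 18 compared homeostatic microglia genes 7 were at least 2-fold lower, 0 were higher, and the median was -0.62. P2ry12, the ADP receptor of resting microglia, had 490, 444 and 349 reads, a ratio of 0.859 (0.744 to 0.99). Tmem119 had 440, 497 and 374 reads (-0.26) and P2ry13 had 144, 238 and 179 (-0.24). The TGF-beta receptor chain Tgfbr1 had 544, 1384 and 365 reads (-1.55). The whole list summed to an FPKM of 138, 329 and 167. The surface proteins P2ry12, Tmem119 and P2ry13 were thus near level, while Tgfbr1 differed by more than 2-fold.

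Markers of infiltrating and border immune cells were sparse in all libraries. Of 20 lymphoid genes only Lck was compared, with 25, 50 and 53 reads (0.11), and 14 of the 20 had 0 reads in PS19 Zbp1+/-, 3 in PS19 and 7 in WT. The lymphoid list summed to an FPKM of 29.3 in PS19 and 6.61 in PS19 Zbp1+/-, with WT at 11.1. Most of the PS19 sum came from its immunoglobulin gene Ighm, which is not among the compared genes. Ighm had 295, 809 and 94 reads and an FPKM of 9.07, 24.8 and 3.15. Of 16 monocyte, border macrophage and neutrophil genes 5 were compared, all lower, with a median of -0.97; none had an FPKM of 1 in PS19 Zbp1+/-, so these had to be lower. Mrc1, the mannose receptor of border macrophages, had 80, 119 and 6 reads, and Cd163, a haemoglobin scavenger receptor, had 37, 95 and 8. The list summed to an FPKM of 5.74, 9.52 and 1.67. The part of both lists in the immune differences was not tested.

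**Figure D3:**
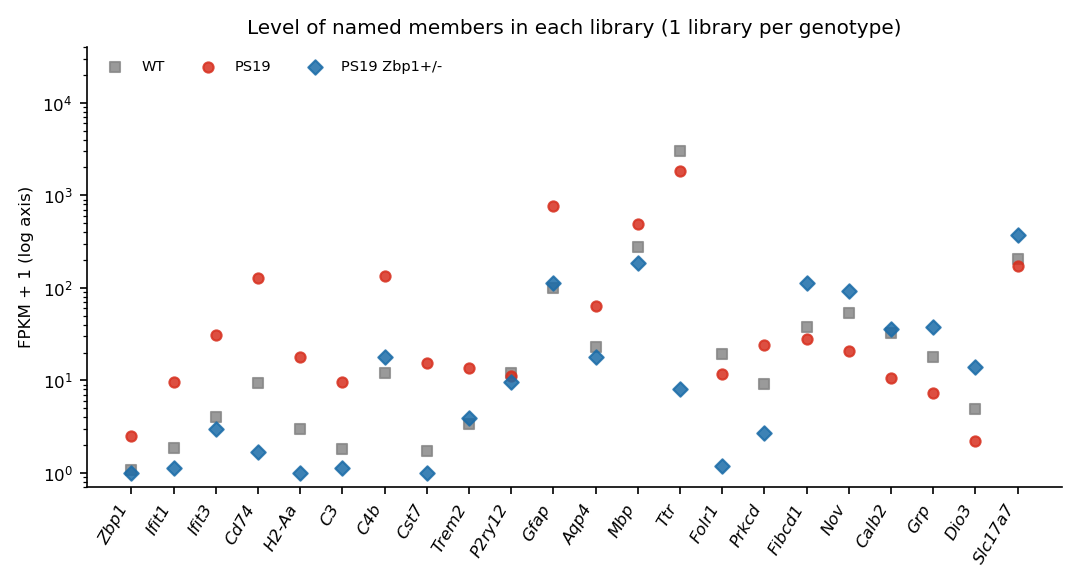
FPKM + 1 (log axis) of 22 named genes in the WT (squares), PS19 (circles) and PS19 Zbp1+/- (diamonds) library, 1 library per genotype and so without error bars. PS19 is above both other libraries for Ifit1, Ifit3, Cd74, C3, C4b, Cst7, Gfap and Prkcd and below both for Nov, Calb2, Grp and Dio3, while Ttr is high in WT and PS19 and low in PS19 Zbp1+/-.

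Reactive astrocyte genes were all lower. Of 22 compared genes 15 were at least 2-fold lower, with a median of -1.37, and the list summed to an FPKM of 194, 1227 and 205. Over the 12 genes at an FPKM of 1 in both libraries the median was -1.23, and the others had to be lower. Gfap, the intermediate filament that marks reactive astrocytes (chromosome 11, 102887336 to 102900912), had 7159, 55995 and 7509 reads, 6.83-fold lower (6.66 to 6.99). Vim, another intermediate filament, had 1029, 5040 and 641 reads, a difference of -2.71. Serpina3n, a secreted protease inhibitor, had 776, 5585 and 874 reads (-2.50). PS19 held the most reads of all 3 genes, and PS19 Zbp1+/- was slightly above WT for Gfap and below it for Vim. S100a10, an annexin partner counted among the markers of neuroprotective reactivity, differed least, at 207, 322 and 218 reads (-0.40).

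Of 20 homeostatic astrocyte genes 2 were at least 2-fold lower, 0 were higher, and the median was -0.38. The 2 were Aqp4, the water channel of astrocyte endfeet, with 1945, 5464 and 1364 reads (3.67-fold lower, 3.45 to 3.89), and the calcium-binding protein S100b with 1645, 2612 and 1015 (-1.22). The glutamate transporters Slc1a2, with 31789, 47729 and 34090 reads (-0.36), and Slc1a3, with 8511, 12456 and 8532 (-0.41), were closer to level. Aldoc, a glycolytic enzyme of astrocytes, had 11385, 13460 and 15215 reads (0.30).

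Myelin genes were lower, and their sum was below that of both other libraries. Of 26 compared genes 25 were lower and 18 at least 2-fold, the median was -1.28, and all 26 had an FPKM of 1 in both libraries. The list summed to an FPKM of 1537, 2407 and 932. Mbp, the main protein of compact myelin (chromosome 18, 82475146 to 82585637), had 39418, 70246 and 24670 reads, 2.61-fold lower (2.57 to 2.64). Cldn11, the tight junction protein of myelin, had 2195, 4772 and 1285 reads (-1.74), and the glycoprotein Mog had 831, 1453 and 544 (-1.25). Enpp2, autotaxin, is also made by the choroid plexus and had 28530, 25713 and 1372 reads (-4.01). The lineage factors differed among themselves: Olig1 had 2550, 2928 and 3614 reads (0.43) and Olig2 had 465, 674 and 579 (-0.09), while Myrf, with 1055, 2562 and 986 (-1.15), and Sox10, with 830, 1514 and 838 (-0.69), both chosen after their values were seen, were lower. The 14 oligodendrocyte precursor genes had a median of -0.16, which became 0.18 at a mean FPKM of at least 5; Pdgfra, the receptor that defines these cells, had 1077, 1055 and 777 reads (-0.27), and Cspg4, the NG2 proteoglycan, had 362, 483 and 721 (0.53).

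Choroid plexus transcripts set PS19 Zbp1+/- apart from both other libraries. Of 27 listed genes 26 were compared, 24 were at least 2-fold lower, 0 were higher, and the median was -2.36. Only 8 of the 26 had an FPKM of 1 in both libraries, with a median of -1.93, and the others had to be lower. Summed FPKM was 3664, 2357 and 67.3, 2.86% of the PS19 sum. Ttr, the thyroxine carrier secreted by the plexus (chromosome 18, 20665250 to 20674324), had 63846, 38820 and 136 reads, 261-fold lower (221 to 312). Folr1, the folate receptor of plexus epithelium (chromosome 7, 101858331 to 101870788), had 720, 431 and 7 reads, 56.4-fold lower (27.1 to 141). Kcnj13, a potassium channel of the apical membrane, had 294, 251 and 1 reads, a ratio of 0.00435 (0.00011 to 0.0245). Kl, the Klotho gene, had 2815, 2325 and 351 reads, and Clic6, a chloride channel protein, 1613, 1351 and 46. Of the listed genes Slc4a5, Steap1 and Tmem72, singled out after their values were seen, had 0 reads in PS19 Zbp1+/-, with 602, 77 and 775 reads in PS19. Slc5a5, an iodide transporter, was the exception at 432, 448 and 625 reads (0.56).

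Markers of tissue next to the plexus differed as well, those of ependyma being lower and those of meningeal fibroblasts mixed. Of 21 compared ependyma and motile cilia genes 9 were at least 2-fold lower and 0 higher, with a median of -0.96, and summed FPKM was 80.3, 70.5 and 25.3. Only 10 of the 21 had an FPKM of 1 in both libraries, with a median of -0.69, and genes at 1 only in PS19 had to be lower. Foxj1, the master regulator of motile cilia, had 424, 537 and 97 reads (-1.94), and Ccdc153 and Tmem212, both ependymal markers, had 171, 94 and 27 and 101, 72 and 13. Of 14 meningeal and perivascular fibroblast genes 7 were lower and 2 higher, and the median of -0.91 became 0.83 at a mean FPKM of at least 5. It was -0.56 over the 10 genes at an FPKM of 1 in both libraries. Fibroblast genes at 1 only in PS19, Fmod among them, had to be lower. Ptgds, prostaglandin D synthase of the meninges, had 12721, 9741 and 1828 reads (-2.27), and Fmod, a small proteoglycan, had 314, 391 and 29 (-2.33), whereas Dcn, which CA1 neurons also express, had 1140, 474 and 1910 (1.93). Haemoglobin transcripts were lower too: Hbb-bs had 112, 83 and 9 reads and Hba-a1 103, 94 and 22, and these near-identical copies may share reads. Of the compared libraries Hbb-bs reached an FPKM of 1 only in PS19, so it had to be lower. The vessel wall differed less, with medians of -0.18 over 18 endothelial genes, 2 of them lower, and -0.07 over 12 pericyte and smooth muscle genes, 0 of them past 2-fold. Cldn5, the tight junction protein of brain endothelium, had 548, 467 and 853 reads (0.96), and Pecam1 had 312, 328 and 243 (-0.22).

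WT and PS19 both held plexus transcripts and differed in the immune genes. WT held more Ttr than PS19, 63846 against 38820 reads, with 204 reads of Cd74 against 3052, 92 of Ifit3 against 897 and 73 of C3 against 768. PS19 Zbp1+/- was low in Ttr and in all of these. How far the lower plexus and ependymal transcripts of PS19 Zbp1+/-, and its mixed meningeal ones, enter its immune, myelin and glial differences was not tested. Leaving the genes of these 3 tissue lists out of the count gave 597 genes at least 2-fold lower and 237 higher. This subtracts only the listed genes and so does not test that question.

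**Figure D4:**
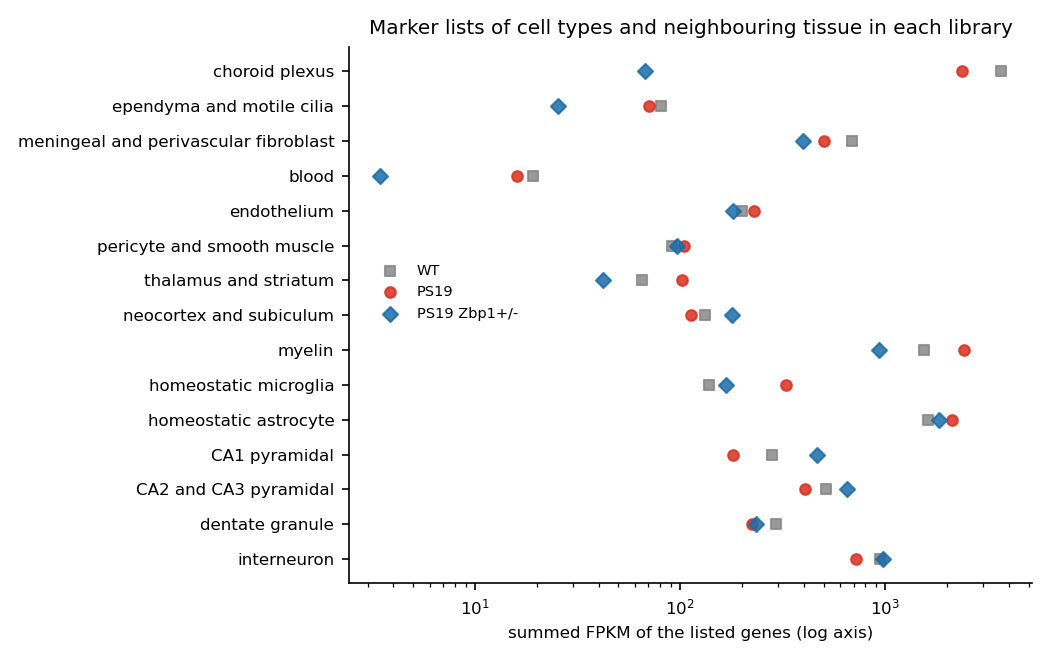
Summed FPKM (log axis) of 15 marker lists for cell types and neighbouring tissue in WT (squares), PS19 (circles) and PS19 Zbp1+/- (diamonds), 1 library per genotype. Choroid plexus, at 3664, 2357 and 67.3, separates PS19 Zbp1+/- from both others by the widest gap, and the CA1 pyramidal sum is highest in PS19 Zbp1+/-.

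Markers of tissue that borders the hippocampus, which a dissection can include or leave out, also differed. Of 17 thalamic and striatal genes 7 were at least 2-fold lower and 0 higher, with a median of -0.63, and summed FPKM was 64.9, 102 and 41.9. Over the 11 genes at an FPKM of 1 in both libraries the median was -0.70, and genes at 1 only in PS19 had to be lower. The largest decrease was that of Prkcd, a protein kinase C (chromosome 14, 30595354 to 30626210), with 780, 2211 and 148 reads, 13.7-fold lower (11.6 to 16.3). Tcf7l2, a transcription factor of thalamic neurons, had 149, 582 and 64 reads (-1.73), and Ramp3, a receptor-modifying protein, had 76, 268 and 52 (-1.86). Genes of striatal neurons varied, with Drd2, a dopamine receptor, at 102, 66 and 57 reads (-0.05), Rgs9 at 212, 191 and 241 (0.31) and Ppp1r1b, the phosphatase inhibitor DARPP-32, named after its values were seen, at 1319, 1277 and 704 (-0.70). Of 17 neocortex and subiculum genes 2 were higher and 1 lower, with a median of 0.53: Fezf2, a factor of deep-layer projection neurons, had 757, 507 and 1635 reads (1.72), and Tbr1 had 921, 525 and 1114 (1.08). The part of dissection in the differences was not tested.

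Within the hippocampus, genes of CA1 pyramidal cells were higher and genes of dentate granule cells were not. Of 12 CA1 genes 5 were at least 2-fold higher and 0 lower, 10 were higher by any amount, and the median was 0.88, with all 12 at an FPKM of 1 in both libraries. Fibcd1, a chitin-binding receptor (chromosome 2, 31813290 to 31846005), had 3036, 2220 and 8364 reads, a ratio of 4.12 (3.93 to 4.31). Nov, the matricellular protein CCN3 (chromosome 15, 54745702 to 54754039), had 2626, 983 and 4128 reads, a ratio of 4.59 (4.28 to 4.92). Both were highest in PS19 Zbp1+/- and lowest in PS19. Not all CA1 genes shared this: Wfs1, the wolframin of the endoplasmic reticulum, had 2537, 1775 and 1678 reads (0.04), and Spink8, a protease inhibitor, had 297, 208 and 148 (-0.34).

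Of 16 CA2 and CA3 genes 2 were past 2-fold higher and 1 lower, with a median of 0.29. Ptpru, a receptor phosphatase, had 1362, 1190 and 3430 reads (1.56), Nnat, neuronatin, had 5914, 3543 and 8345 (1.36), and Pcp4, a calmodulin regulator of CA2, had 256, 251 and 76 (-1.42). Of 18 dentate granule genes 2 were lower and 1 higher, and the median of -0.34 became 0.14 at a mean FPKM of at least 5. Prox1, which specifies granule cells, had 1268, 1379 and 690 reads (-0.76), Dsp, desmoplakin, had 644, 690 and 195 (-1.17), and Calb1, calbindin, had 2053, 971 and 2096 (1.17). The list of dentate mossy and calretinin cells was split: 5 of 10 were higher by 2-fold or more and 0 lower, with a median of 0.79 that became -0.05 over the 7 genes at an FPKM of 1 in both libraries. Grp, gastrin-releasing peptide, had 308, 116 and 614 reads, a ratio of 5.78 (4.73 to 7.11), and Calb2, calretinin, had 937, 286 and 960, a ratio of 3.67 (3.21 to 4.2), while Drd2 and Ociad2 were level at -0.05 and -0.10.

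Interneuron genes had a median of 0.20 over 24 genes, with 3 higher and 0 lower, and the median became -0.04 after rescaling both libraries to the same FPKM sum (TPM). Gad1 and Gad2, which synthesize GABA, had 6308, 6332 and 5568 reads (-0.06) and 2743, 3596 and 2700 (-0.28). Pvalb, parvalbumin, had 567, 661 and 464 reads (-0.37). Nos1, neuronal nitric oxide synthase, had 1297, 1381 and 3944 reads (1.52), Kit, a receptor kinase, had 2099, 1277 and 3249 (1.37), and Cck, cholecystokinin, had 5437, 3230 and 6022 (1.02).

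Synaptic genes were higher by small amounts. Medians were 0.46 over 31 glutamate receptor genes, 0.48 over 31 postsynaptic genes and 0.44 over 36 presynaptic genes, with 3, 2 and 1 of them at least 2-fold higher and 0 lower in each. Slc17a7, the vesicular glutamate transporter VGLUT1 (chromosome 7, 45163949 to 45176142), had 19131, 16068 and 31639 reads, a ratio of 2.15 (2.11 to 2.19), whereas Slc17a6, VGLUT2, the transporter of thalamic neurons, had 278, 698 and 381 (-0.64). Among postsynaptic scaffolds Shank1 had 8727, 10418 and 19944 reads (1.05) and Dlgap3 had 6433, 5294 and 10406 (1.09). Cnih3, an AMPA receptor auxiliary subunit, had 1109, 808 and 2300 reads (1.58), and Grin3a, an NMDA receptor subunit, had 572, 618 and 1568 (1.21). Syt2, the fast calcium sensor of parvalbumin and thalamic terminals, had 499, 1041 and 458 reads (-0.89). The 1232 most highly expressed of all genes compared had a median of 0.33, which is the background for such abundant genes. The medians of the potassium and of the sodium, calcium and HCN channel lists below lay near it. Of all genes compared 1.94% were at least 2-fold higher. Rescaling to TPM moved the median over all genes from 0.04 to -0.23, so medians this small depend on the scaling.

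Potassium channel genes had a median of 0.30 over 44 genes, with 3 higher and 1 lower. The silent subunit Kcnf1 had 1211, 934 and 2351 reads (1.38), its relative Kcng1, outside the list, had 809, 463 and 1983 (2.05), and Kcnj2, an inward rectifier, had 139, 286 and 23 (-1.67). Sodium, calcium and HCN channel genes had a median of 0.34 over 27 genes, with 0 higher and 1 lower: Scn4b, the beta 4 sodium channel subunit, had 377, 829 and 147 reads (-1.89). The GABA-A receptor genes had a median of 0.10 over 13 genes, which became -0.16 after rescaling to TPM. Gabra2, the alpha 2 subunit, stood out with 1735, 1309 and 4472 reads, a ratio of 3.73 (3.51 to 3.97), against 1588, 1694 and 1064 reads for Gabra4 (-0.51). Neuropeptide and granin genes had a median of 0.37 over 23 genes, with 2 higher and 0 lower, and Npy, neuropeptide Y, had 650, 458 and 350 reads (-0.25). Immediate early genes, induced by neuronal activity, had a median of 0.06 over 22 genes, which became -0.22 after rescaling to TPM; Fos had 476, 467 and 206 reads (-0.93), Npas4 had 378, 319 and 136 (-0.87) and Nr4a2 had 1394, 776 and 1178 (0.68).

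Of 30 genes of necroptosis, apoptosis and pyroptosis 7 were at least 2-fold lower, the targeted Zbp1 itself among them, and 0 higher. Over all genes compared these shares were 5.17% and 1.94%. The median was -0.32, or -0.16 over the 18 at an FPKM of 1 in both libraries. Genes at 1 only in PS19 had to be lower, and Casp8, Fas and Gsdmd are such genes. Casp8, the protease that ZBP1 complexes engage for apoptosis, had 42, 114 and 18 reads, 5.8-fold lower (3.51 to 10.1). Fas, a death receptor, had 22, 64 and 10 reads (-1.18), and Gsdmd, the pore-forming gasdermin D, had 58, 128 and 33 (-1.13). The highest of the list were Tnfaip3, the A20 inhibitor of NF-kB, with 123, 117 and 185 reads (0.43), Apaf1, the apoptosome scaffold, with 432, 310 and 376 (0.28), and Bbc3, PUMA, with 197, 174 and 182 (0.16).

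Chemokine and cytokine genes divided by level. Of 22 compared genes 13 were at least 2-fold lower and 0 higher, with a median of -1.36, but the median was 0.0085 over the 10 genes at an FPKM of 1 in both libraries and 0.39 at a mean FPKM of at least 5. The inflammatory chemokines Cxcl10, with 13, 186 and 4 reads (-2.38), Ccl12, with 1, 59 and 2 (-2.57), and Ccl6, with 11, 254 and 28 (-2.21), were low outside PS19. The constitutive neuronal ligands Cx3cl1, with 8464, 7315 and 10320 reads (0.62), and Il34, with 839, 582 and 827 (0.61), were higher in PS19 Zbp1+/- than in PS19.

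All 30 compared lysosome genes were lower, 10 of them at least 2-fold, beside 5.17% of all genes, and summed FPKM was 1417, 2032 and 1249. The median was -0.68, and -0.65 over the 28 at an FPKM of 1 in both libraries. The cathepsins Ctsh, with 180, 456 and 62 reads (-1.88), and Ctsc, with 278, 493 and 63 (-1.81), differed most after Ctss. Both reached an FPKM of 1 only in PS19 and so had to be lower. Psap, prosaposin, differed less, with 32463, 32846 and 25491 reads (-0.24). Collagen and laminin genes had a median of -0.44 over 25 genes, with 4 lower and 0 higher, and of -0.17 over the 17 at an FPKM of 1 in both libraries. Among them Col9a3 had 1407, 1390 and 108 reads (-2.98) and Col8a1, which is also on the plexus list, had 424, 476 and 11 (-2.05), while the basement membrane collagen Col4a2 had 1233, 1149 and 1788 (0.71).

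Housekeeping groups moved little. The 71 cytosolic ribosomal protein genes had a median of 0.23 and the 69 nuclear-encoded respiratory chain genes one of 0.16, which became -0.06 and -0.12 after rescaling to TPM. Rps2 (chromosome 17, 24718116 to 24721929) was the lowest ribosomal gene with 4555, 1943 and 173 reads (-3.16), and reads of this gene can be assigned to its near-identical pseudogenes. Heat shock and unfolded protein genes had a median of 0.04 over 32 genes, which became -0.24 after rescaling to TPM, and Atf3, a stress-induced factor, had 27, 88 and 12 reads (-1.31). Cholesterol genes had a median of 0.39 over 26 genes. A synthesis gene and the efflux genes named here differed in sign: Fdft1, squalene synthase, had 1251, 696 and 1535 reads (1.19), whereas the exporter Abca1 had 842, 2523 and 576 (-1.74) and the carrier Apoe 33308, 53912 and 29062 (-0.76).

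Of 34 tau, amyloid and microtubule genes 1 was at least 2-fold higher and 0 lower, with a median of 0.40. Cdk5r2, an activator of the tau kinase CDK5, had 4733, 3584 and 7388 reads (1.16), and Map6, a microtubule stabilizer, had 1779, 1623 and 3097 (0.99). Clu, clusterin, a chaperone made by astrocytes, had 18861, 30041 and 15476 reads (-0.83), the lowest of the list. Aplp2, a relative of the amyloid precursor, had 9627, 10901 and 8053 reads (-0.31).

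The largest increase of all was that of Dio3 (chromosome 12, 110279068 to 110281097), which encodes the deiodinase that inactivates thyroid hormone, with 137, 42 and 418 reads, a ratio of 10.9 (7.9 to 15.3). Grp followed at 2.36, then Gm8186 with 45, 13 and 84 reads (2.32), Nov at 2.14 and Gm9922 with 4, 0 and 23 reads (2.12). Hs3st2, a heparan sulfate sulfotransferase, had 245, 93 and 477 reads (1.98), Ntn5, a netrin-related protein, had 144, 32 and 222 (1.998), and Foxo6, a forkhead factor of hippocampal neurons, had 910, 450 and 1596 (1.85). Chrm5, a muscarinic receptor, had 32, 28 and 163 reads (1.89), and Nxph3, a neurexin ligand, had 326, 243 and 867 (1.82). Most of these genes were lowest in PS19 and highest in PS19 Zbp1+/-, and Chrm5 differed little between WT and PS19. Among the 15 largest decreases were 6 choroid plexus genes and 4 MHC class II genes, along with Lyz2, Cst7, Ifit3 and 2 genes with few reads, Cox8b (58, 69 and 0 reads) and Gm17622 (4, 8 and 0 reads).

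The balance of decreases and increases moved with expression level. Among the 1232 compared genes with the lowest mean FPKM the median was -0.33, with 157 at least 2-fold lower (12.7%) and 14 higher (1.14%). Among the 1232 with the highest mean FPKM the median was 0.33, with 42 lower (3.41%) and 60 higher (4.87%). By gene length, 246 of the 2463 shortest genes were lower (9.99%) against 63 of the 2462 longest (2.56%). After rescaling to TPM the median over all genes was -0.23 in place of 0.04, with 1447 lower and 172 higher genes, so that 10.6% of the called genes were higher instead of 27.3%. Scaling by total reads moved the median to -0.12 and gave 825 lower and 135 higher genes, 14.1% of them higher.

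**Figure D5:**
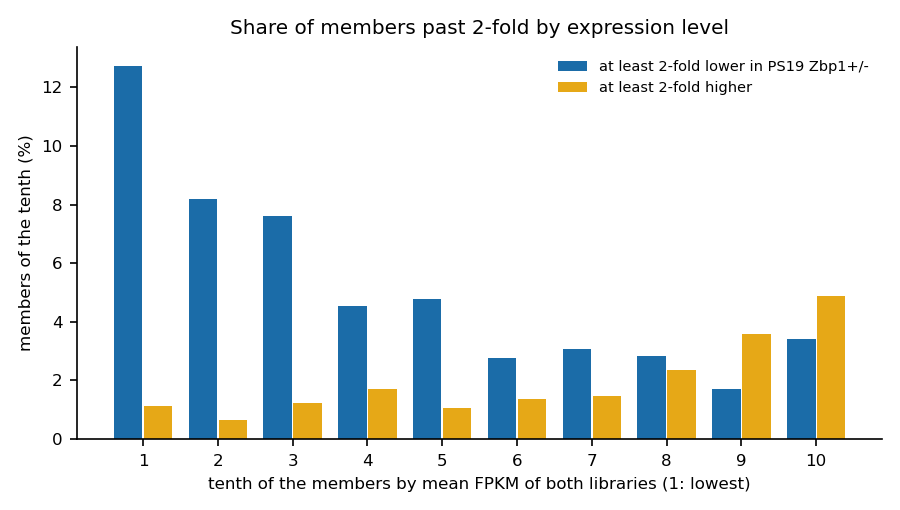
Share of genes (%) at least 2-fold lower (blue) or higher (yellow) in PS19 Zbp1+/- than in PS19, in 10 equal groups of the compared genes ordered by mean FPKM of both libraries (x axis, 1 the lowest). The share lower goes from 12.7% in the lowest group to 3.41% in the highest, and the share higher from 1.14% to 4.87%.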

How the data were processed

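Per the labels' protocols, TRIzol was used to extract RNA and an NEB Next Ultra kit to prepare libraries; strandedness is not given in the sources used here. The submitters' processing notes name Trim Galore 0.6.5, STAR 2.5.3a, featureCounts 2.0.4 and the build mm39. Gene positions in the table were nonetheless those of GRCm38: 95.5% of 12310 compared genes found in GENCODE M21 had identical coordinates there. The authors deposited 1 table of FPKM values with 1 column per genotype and each gene's length in bases, and every sample column was used. FPKM times length was a whole multiple of 1 step (tolerance 0.01 reads) in 100% of values, so whole reads were recovered. With 1 library per genotype no count model could be fitted, so no gene was called by one.

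Differences of log2(FPKM + 1) were called at 1 log2 unit. Read ratios were taken per implied library size (17287957 in PS19, 15826984 in PS19 Zbp1+/-; these are the sizes behind the FPKM scaling, not the read totals) with exact (Clopper-Pearson) 95% intervals; against 0 reads a floor of 3 reads per library gave a bound. Promoter sequences came from RefSeq. The rule for named genes took Zbp1, Mapt, Prnp, Gapdh and Actb, the 15 largest increases and decreases, up to 4 lowest and 3 highest genes and the first 3 markers of each list, the 10 most abundant genes in each library and the promoter examples. The compared genes and the 44 lists were chosen with earlier results of these data known. Gapdh, which has near-identical copies, had 1629, 239 and 205 reads, with WT first and PS19 Zbp1+/- last. Left out were 434 sex-chromosome and 13 mitochondrial protein-coding genes. Alternatives tried were the pseudocount, filters on low values, scaling, threshold, biotypes and list make-up. The procedure was tested on simulated data. Scripts ran in Python 3.11.15 with scipy 1.17.1, pandas 2.3.3 and numpy 2.4.6; matplotlib 3.10.9 drew the figures.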

Additional observations from a re-analysis of the deposited data

Results flagged for a closer look

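These genes lie outside the compared set and were singled out because PS19 Zbp1+/- held at least 100 reads of them, at least 8-fold above PS19. Of the Y-linked genes, Ddx3y, an RNA helicase, had 711 reads there and 0 in both WT and PS19. Eif2s3y, a translation initiation factor subunit, had 495 reads against 0 and 0. Kdm5d, a histone demethylase, had 413 reads against 0 and 0. Uty, another histone demethylase, had 268 reads against 0 and 0. Xist had 11062 reads in WT, 13350 in PS19 and 0 with reduced Zbp1, so sex and genotype cannot be told apart in this comparison. Ftl2-ps, a pseudogene of ferritin light chain, had 1, 6 and 347 reads. Tmem181c-ps, another pseudogene, had 7, 33 and 499 reads. The split of reads between these pseudogenes and similar genes is uncertain.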

How the results depend on the processing

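No paired analysis was possible because each genotype had 1 library, and for the same reason no library could be left out. The main counts were 637 lower and 239 higher genes. They were 1145 and 410 with a pseudocount of 0.1, 1495 and 1143 at 1.5-fold, 102 and 8 at 4-fold, and 1005 and 492 with all biotypes. Lower genes numbered 325 at an FPKM of 1 in both libraries, 233 at a mean FPKM of at least 5 and 1447 after rescaling to TPM. Higher genes numbered 135 after scaling by total reads. Weak genes limit these counts: 46 compared genes had 0 reads in PS19 Zbp1+/-, and 186 had fewer than 50 reads over both libraries.

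Of 42 list medians 11 changed sign under some setting. The chemokine median of -1.36 turned to 0.0085 at an FPKM of 1 in both libraries and to 0.39 at a mean FPKM of at least 5, where weak genes are left out, and was -0.73 with no filter. Some medians passed 1 log2 unit only under another setting. With a pseudocount of 0.1 these were MHC class I at -1.73, ependyma at -1.47, meningeal fibroblast at -1.33, monocytes and border macrophages at -2.52, CA1 at 1.03 and mossy cells at 1.35. With 0.5 they were -1.24, -1.23, -1.09 and -1.50 for the first 4 and 1.08 for mossy cells. At a mean FPKM of at least 5 they were MHC class I at -1.38, mossy cells at 1.96 and thalamus and striatum at -1.28. After rescaling to TPM they were MHC class I at -1.73, ependyma at -1.61, meningeal fibroblast at -1.45, monocytes at -2.14, mossy cells at 1.03 and thalamus and striatum at -1.003. Scaling by total reads gave ependyma -1.05, meningeal fibroblast -1.03 and monocytes -1.02. Setting the median of all genes to 0 gave monocytes -1.01, and means in place of medians gave MHC class I -1.20 and monocytes -1.09. Of 335 named genes compared, 138 were past 2-fold and 0 of these changed sign; of the others 21 did, all with rescaling to TPM and some also with the other scalings, each within 0.27 log2 units of 0 beforehand. Among named genes 23 values dropped below 2-fold and 80 passed it. The cause of these shifts was not tested, apart from the fewer genes that the filters leave.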

Other observations

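Genes in no list were also among the larger differences, and those named here were chosen after their values were seen, so no share or direction of a family follows from them. Several G protein-coupled receptors of neurons had more reads with reduced Zbp1, and reads are given for WT, PS19 and PS19 Zbp1+/- in this order. The somatostatin receptors Sstr1, with 243, 170 and 539 reads (1.60), Sstr2, with 217, 83 and 279 (1.51), and Sstr3, with 495, 369 and 1049 (1.46), were each highest in PS19 Zbp1+/-. The muscarinic receptor Chrm4 had 266, 175 and 530 reads (1.60), the alpha-2 adrenergic receptor Adra2c had 772, 453 and 1366 (1.60), and the histamine receptor Hrh3 had 1084, 995 and 2906 (1.62). The serotonin receptor Htr1a was nearer level, with 600, 450 and 517 reads (0.28).

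Of immune receptors outside the lists, 4 that were lower are given here. The inhibitory Fc gamma receptor Fcgr2b had 72, 525 and 20 reads (-2.36), and the activating receptor Fcgr3 had 145, 600 and 154 (-1.67). Tlr2, which senses bacterial lipoproteins, had 26, 197 and 5 reads (-2.11), and Lag3, a checkpoint receptor, had 111, 1200 and 116 (-2.92). Of genes outside the compared set, the X-linked sensor Tlr7 had 56, 239 and 8 reads, the immunoglobulin light chain constant gene Igkc had 16, 314 and 4, and Clec7a, the dectin 1 gene, had 1, 428 and 4.

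Some stress and lipid genes were lower as well. A2m, alpha-2 macroglobulin, had 437, 1150 and 7 reads (-3.30), and Plin4, a lipid droplet protein, had 194, 1155 and 39 (-3.14). Sgk1, a kinase induced by glucocorticoids, had 3806, 4805 and 998 reads (-2.06), whereas Fkbp5, another glucocorticoid target, had 1280, 1339 and 1075 (-0.17). Cdkn1a, the p21 cell cycle inhibitor, had 167, 804 and 137 reads (-2.04), and the metallothionein Mt1 had 4596, 7527 and 2560 (-1.42).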
